A study of Rattus norvegicus with 8 samples.

Results

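Of the 46 genes described here, all but 1 encode collagens, other proteins of the extracellular matrix, the proteases that cut it or inhibitors of those proteases. The remaining gene, Tnfrsf11b, encodes a decoy receptor and is counted among the matrix genes below. All 46 were taken by gene symbol from a list of matrix genes that was drawn up with earlier results of these data known. Of these, 39 were listed among the 17337 genes of the count table. The other 7 (Col6a1, Col6a3, Col4a2, Lama2, Lamb1, Nid1 and Hspg2) were not listed under these symbols or their RefSeq synonyms and were not analysed here. Col1a2 had 2 counts in saline rat 2 and 0 in the other rats and was removed by the filter on low counts, so 38 of the 39 genes were tested among 12014 genes in all.

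The mRNA of the striatum, the forebrain region at the centre of reward and habit learning, was sequenced in 8 male Sprague-Dawley rats with a wild-type genotype. The METH group (n = 4) self-administered methamphetamine, a psychostimulant that releases dopamine, at 0.05 mg/kg per infusion in 2 h sessions over 16 days, and the saline group (n = 4) had saline in the same sessions. Both groups had food training, jugular catheter surgery, catheter flushing with heparin and gentamycin, a fixed ratio 1 schedule, in which a single lever press outside the timeout earns an infusion, and ketamine and xylazine anesthesia before the tissue was taken. Only rats with stable lever pressing were used, each library came from 1 rat, and the rats' age and the time from the last session to tissue collection were not given in the sources used here.

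Fibrillar collagens, collagen VI and the small proteoglycans lie around larger vessels and in the meninges, while collagen IV, laminins and nidogens build the basement membrane of capillaries. Between neurons, lecticans bind hyaluronan through link proteins and are crosslinked by tenascins, and around some neurons this mesh is dense enough to be called a perineuronal net. Metalloproteases of the Mmp and Adamts families and the plasminogen activator tPA remodel the matrix, and the Timp proteins inhibit the metalloproteases.

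Total counts lay between 18135939 and 21211920 per rat. After the filter on low counts and the scaling of each library, 3 counts correspond to 0.142 to 0.169 CPM, the counts scaled to a common library size. METH rat 3 stood apart from the other rats on the first principal component. Values without it are given for those of the 38 genes tested that had an unadjusted p below 0.05, and not for every gene. The 8 striatal projection neuron markers, Ppp1r1b, Drd1, Drd2 and Penk among them, were all detected in every rat and summed to between 14020 and 14825 CPM in saline and between 14765 and 18821 CPM in METH rats, with METH rat 3 the highest. Ppp1r1b (log2 fold change 0.25, SE 0.09) and Drd2 (0.19, SE 0.08) were higher with METH, each with an unadjusted p below 0.05, and the part of this list in the results for the matrix genes was not tested.

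Of the 38 genes tested, 1 was called in the comparison of METH with saline rats at a false discovery rate (FDR) below 0.05 and a mean log2 CPM above 1. This was Tnfrsf11b, the decoy receptor of the list, which was lower in METH rats, at 0.545 times its saline level. Over all genes tested, 0.516% were called, with 0.449% called higher and 0.0666% called lower. No matrix gene was called higher by edgeR, while DESeq2 called Lamc1 as well and limma-voom called Tnfrsf11b alone. At an unadjusted p below 0.05 in edgeR's quasi-likelihood test, 5 matrix genes were higher in METH rats (Lamc1, Col11a1, Timp4, Bcan and Adamts1) and 1 was lower (Tnfrsf11b). These 6 genes are 15.8% of those tested, beside 11.1% of all genes tested, 6.26% of which were higher and 4.88% lower. When counts were scaled by library total alone, which moved the median log2 fold change of all genes from -0.01 to -0.04, the split was 2 higher and 3 lower, with 3 of the 6 genes among them (Tnfrsf11b, Lamc1 and Col11a1). Without METH rat 3, it was 4 higher and 2 lower, with 4 of the 6 among them: Timp4 and Bcan no longer had an unadjusted p below 0.05, and Plat (log2 fold change 0.22) and Adamts4 (-0.25) did.

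The median log2 fold change of the 38 genes was 0.05, beside -0.01 for all genes tested, and the fitted values ran from -0.88 to 0.69. Of the 38, 24 were above 0 and 14 below, beside 5842 above and 6172 below of all 12014 genes. The 4 METH and 4 saline rats did not overlap in CPM for 4 genes, 10.5% of those tested, beside 6.39% of all genes. In Col11a1, Lamc1 and Timp4 every METH rat lay above every saline rat, as in 3.75% of all genes, and in Tnfrsf11b every METH rat lay below, as in 2.65%. Because whole tissue was sequenced, fewer cells of a type and less RNA per cell cannot be told apart in any of these values.

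**Figure D1:**
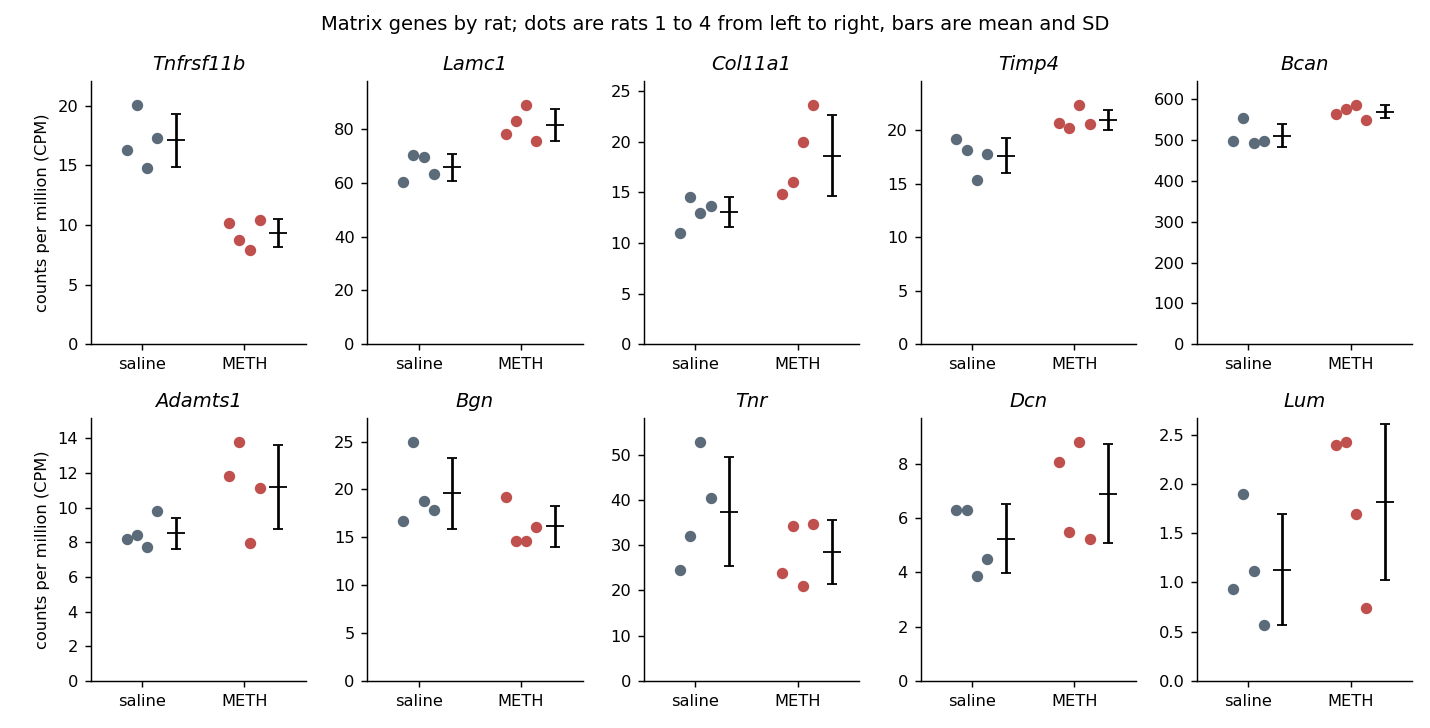
CPM in each rat (vertical axes, each starting at 0) for the 10 matrix genes described rat by rat, with saline and METH rats as points and the group mean ± SD as a bar. The groups separate in Tnfrsf11b, Lamc1, Col11a1 and Timp4 and overlap in the other 6 genes.

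The promoters of Lamc1, Col11a1 and Timp4 are shown because these are the genes whose METH rats all lay above the saline rats. They were chosen for display after their values were seen. Tnfrsf11b, the gene called, is named only, because no promoter was found for it. Each sequence is 300 bases from RefSeq on the rat build GRCr8, from 250 bases before to 50 after the transcription start, read 5′ to 3′ on the strand of the gene. Capitals mark GC box letters (GGGCGG) and CCAAT box letters (CCAAT) on either strand.

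Lamc1 (chr13:68051937-68052236, minus strand): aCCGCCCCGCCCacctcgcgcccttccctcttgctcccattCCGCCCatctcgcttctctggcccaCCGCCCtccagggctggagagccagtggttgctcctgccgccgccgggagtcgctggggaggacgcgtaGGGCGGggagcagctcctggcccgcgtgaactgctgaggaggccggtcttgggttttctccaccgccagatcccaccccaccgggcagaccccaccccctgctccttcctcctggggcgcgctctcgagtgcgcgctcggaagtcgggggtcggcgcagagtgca

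Col11a1 (chr2:204508886-204509185, plus strand): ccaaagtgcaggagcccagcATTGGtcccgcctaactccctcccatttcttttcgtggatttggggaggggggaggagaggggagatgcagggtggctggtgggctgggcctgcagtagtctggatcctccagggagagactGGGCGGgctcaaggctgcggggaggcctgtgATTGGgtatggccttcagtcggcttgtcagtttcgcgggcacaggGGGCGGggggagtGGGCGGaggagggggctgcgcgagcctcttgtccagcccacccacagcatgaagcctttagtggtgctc

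Timp4 (chr4:149985155-149985454, minus strand): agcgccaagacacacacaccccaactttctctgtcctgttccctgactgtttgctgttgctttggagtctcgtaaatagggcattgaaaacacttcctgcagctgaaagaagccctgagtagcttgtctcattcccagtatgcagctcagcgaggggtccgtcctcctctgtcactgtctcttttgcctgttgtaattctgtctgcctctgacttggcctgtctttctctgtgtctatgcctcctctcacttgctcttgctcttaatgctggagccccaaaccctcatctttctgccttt

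The Lamc1 window held 5 GC box matches in 71.7% GC, the Col11a1 window 3 GC box and 2 CCAAT box matches in 64.7% GC, and the Timp4 window none of the motifs searched in 50.3% GC. Promoters were found for 25 of the 39 listed genes. GGGCGG was present in 15 of the 25 and in 34.9% of all 27457 promoters of the same length, and CCAAT in 8 of the 25 and 37.7% of all. The TATA box letters TATAAA were present in 5 of the 25 (14.3% of all), the AP-1 letters TGACTCA in 0 (4.53% of all) and the glucocorticoid half-site letters AGAACA in 3 (20.1% of all), with both strands searched. GC content had a median of 61.7% in the 25 windows and of 52.3% in all.

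Tnfrsf11b encodes osteoprotegerin, a secreted decoy receptor that binds the cytokine RANKL and keeps it from its receptor RANK. Its level was 16.2, 20.0, 14.8 and 17.3 CPM in saline rats 1 to 4 and 10.2, 8.76, 7.91 and 10.4 CPM in METH rats 1 to 4. All 4 METH rats lay below the lowest saline rat, and the highest of all was saline rat 2. The group means were 17.1 ± 2.22 CPM (SD, n = 4) in saline and 9.31 ± 1.181 CPM (SD, n = 4) in METH rats. The log2 fold change was -0.88 (SE 0.14, 95% interval -1.18 to -0.57), with an FDR of 0.0102 in edgeR's quasi-likelihood test. The exact permutation p was 0.0286, the smallest that 4 against 4 rats allow and the value of any gene without overlap. Without saline rat 2 the log2 fold change was -0.79 and the FDR 0.0516, above the threshold, and without METH rat 3 it was -0.81 with an FDR of 0.0381.

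Of the other genes of this ligand system, none was called by edgeR, DESeq2 or limma-voom, and 0 of the 3 tested had an unadjusted p below 0.05. Tnfsf11, which encodes RANKL, had 0 counts in every rat, where 3 counts would be 0.142 to 0.169 CPM. Tnfrsf11a, which encodes RANK, lay between 15.6 and 21.8 CPM in saline and between 15.1 and 27.3 CPM in METH rats (log2 fold change 0.25, SE 0.18). Tnfsf10, the gene of TRAIL, another ligand of osteoprotegerin, had a log2 fold change of -0.29 (SE 0.34), and Traf6, the adaptor downstream of RANK, had one of -0.39 (SE 0.25). METH and saline rats overlapped in all 3.

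The fibrillar collagens build the rope-like fibers of connective tissue, and collagens V and XI sit inside those fibers and set their width. Col11a1 was measured at 10.98, 14.5, 13.0 and 13.6 CPM in saline rats 1 to 4 and at 14.8, 15.99, 20.0 and 23.6 CPM in METH rats 1 to 4. The groups were separated by a narrow gap between saline rat 2 and METH rat 1, and METH rats 3 and 4 were the highest. The exact permutation p of 0.0286 restates that the groups did not overlap, as in 6.39% of all genes. The log2 fold change was 0.51 (SE 0.16) with an FDR of 0.242 in edgeR's quasi-likelihood test, so Col11a1 did not pass the test over all genes. Without METH rat 3 the log2 fold change was 0.48 with an edgeR FDR of 0.525.

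The 4 other fibrillar collagen genes tested had no unadjusted p below 0.05, and their log2 fold changes were -0.01 (SE 0.25) for Col1a1, 0.19 (SE 0.31) for Col3a1, 0.40 (SE 0.31) for Col5a1 and 0.28 (SE 0.14) for Col5a2. Col1a1 spread from 10.9 to 25.8 CPM among saline rats alone, with saline rat 2 the highest of all 8, and Col3a1 spread from 4.38 to 12.4 CPM over all rats. For both genes the spread within a group was larger than the difference between group means. Col6a2, the 1 listed chain of collagen VI, a microfibril that links cells to the fibrillar matrix, differed by 0.02 (SE 0.14).

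The basement membrane genes had 7 listed members, 6 of them fitted above 0 and 1 below. Lamc1 encodes the laminin gamma-1 chain, which most laminin trimers of vessels contain. It was measured at 60.2, 70.6, 69.6 and 63.2 CPM in saline rats 1 to 4 and at 78.2, 83.2, 89.1 and 75.7 CPM in METH rats 1 to 4. Every METH rat was above every saline rat, and METH rat 3 was the highest. The means were 65.9 ± 5.01 and 81.5 ± 5.91 CPM (SD, n = 4 each), a log2 fold change of 0.31 (SE 0.08) with an FDR of 0.179 in edgeR's quasi-likelihood test and of 0.0466 in DESeq2, which called 1.59% of all genes. The exact permutation p of 0.0286 restates that the groups did not overlap. Without METH rat 3 the log2 fold change was 0.26 with an edgeR FDR of 0.407.

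None of the 3 other laminin chains tested, which join gamma-1 in trimers, had an unadjusted p below 0.05. Lama4, the alpha-4 chain of endothelial laminin, had a log2 fold change of -0.18 (SE 0.12), Lama5, the alpha-5 chain, had 0.15 (SE 0.15) and Lamb2, the beta-2 chain, had 0.02 (SE 0.08). The 95% interval for Lamb2, -0.15 to 0.19, overlapped that of Lamc1, 0.13 to 0.49, and the difference between the genes was not tested. Col4a1, the collagen IV chain that forms the sheet of the basement membrane, lay between 39.7 and 52.5 CPM over the 8 rats (log2 fold change 0.12, SE 0.11). Col18a1, which carries endostatin, had 0.28 (SE 0.19) with METH rats from 40.9 to 91.2 CPM. Nid2, a linker of laminin and collagen IV, had means of 4.98 CPM in saline and 4.99 CPM in METH rats.

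**Figure D2:**
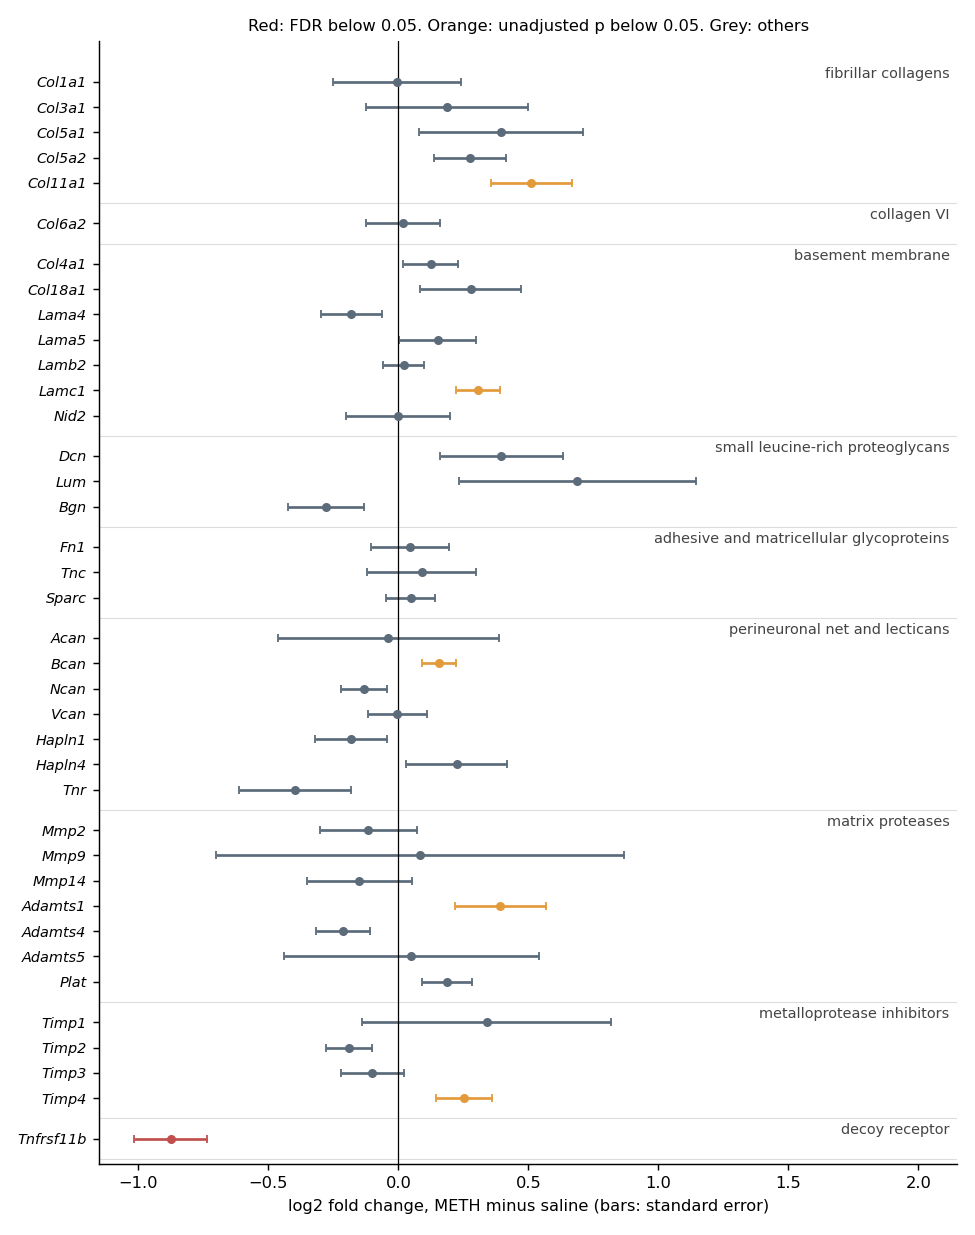
Log2 fold change of METH over saline (horizontal axis) for the 38 matrix genes tested, grouped by role, with bars of 1 standard error from edgeR's quasi-likelihood fit. Tnfrsf11b, in red, lies farthest to the left at -0.88 and is the 1 gene called, and the 5 genes in orange (Lamc1, Col11a1, Timp4, Bcan and Adamts1) lie to the right of 0 with an unadjusted p below 0.05.

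The small leucine-rich proteoglycans bind collagen fibers and shape them. Lum, which encodes lumican, had the highest fitted log2 fold change of all 38 genes, 0.69 (SE 0.46), at a low level of 0.933, 1.90, 1.11 and 0.567 CPM in saline rats 1 to 4 and 2.40, 2.43, 1.69 and 0.738 CPM in METH rats 1 to 4. Its highest library held 51 counts, METH rats 3 and 4 lay within the saline range, and its FDR in edgeR's test was 0.574. Dcn, which encodes decorin, was at 6.31, 6.30, 3.86 and 4.49 CPM in saline rats and 8.08, 5.47, 8.81 and 5.22 CPM in METH rats 1 to 4, with a log2 fold change of 0.40 (SE 0.24). METH rats 1 and 3 exceeded the saline rats and METH rats 2 and 4 did not.

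Bgn, which encodes biglycan, had fitted values on the other side of 0. It lay at 16.7, 25.0, 18.8 and 17.9 CPM in saline rats 1 to 4 and at 19.2, 14.7, 14.6 and 16.1 CPM in METH rats 1 to 4. Saline rat 2 was the highest by a wide margin, METH rat 1 lay inside the saline range, and the log2 fold change of -0.28 (SE 0.15) had an FDR of 0.485 in edgeR's test.

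The 3 adhesive and matricellular glycoproteins had log2 fold changes between 0.04 and 0.09. Fn1, which encodes fibronectin, the cell-binding glycoprotein, had a log2 fold change of 0.04 (SE 0.15), Tnc, which encodes the tenascin of development and injury, had 0.09 (SE 0.21), and Sparc, a collagen-binding glycoprotein of glia and endothelium, had 0.05 (SE 0.10). The 95% interval for Sparc ran from -0.16 to 0.25, with 613 to 775 CPM in saline and 633 to 844 CPM in METH rats.

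Among the 7 genes of perineuronal nets and lecticans, 2 were fitted above 0 and 5 below. Bcan encodes brevican, a lectican made by glia that surrounds synapses. It was at 498, 554, 493 and 497 CPM in saline rats 1 to 4 and at 564, 577, 586 and 550.1 CPM in METH rats 1 to 4. The METH rats lay above 3 of the 4 saline rats, and saline rat 2 was just above METH rat 4. The log2 fold change was 0.16 (SE 0.07) with an FDR of 0.419 in edgeR's quasi-likelihood test and an exact permutation p of 0.0571. Without METH rat 3 it was 0.14 with an edgeR FDR of 0.678.

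Tnr encodes tenascin-R, which crosslinks lecticans in the net, and had the lowest fitted log2 fold change after Tnfrsf11b. It was at 24.6, 31.9, 52.9 and 40.4 CPM in saline rats 1 to 4 and at 23.9, 34.3, 20.9 and 34.6 CPM in METH rats 1 to 4. Saline rats 3 and 4 lay above all METH rats, while saline rats 1 and 2 lay among them, and the log2 fold change of -0.40 (SE 0.21) had an FDR of 0.499 in edgeR's test. The aggrecan gene Acan, the core lectican of the nets, lay between 0.821 and 3.30 CPM (log2 fold change -0.04, SE 0.42), and the interval of -0.95 to 0.88 leaves its difference unresolved at this depth.

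The log2 fold changes of the other net genes were -0.13 (SE 0.09) for the neurocan gene Ncan, -0.18 (SE 0.14) for the link protein gene Hapln1 and 0.22 (SE 0.19) for the link protein gene Hapln4. The versican gene Vcan had means of 27.6 CPM in saline and 27.5 CPM in METH rats. The 4 markers of parvalbumin interneurons, the cells that most often carry the nets, summed to between 111 and 118 CPM in saline and between 100.1 and 129 CPM in METH rats.

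Of the 7 matrix proteases, 4 were fitted above 0 and 3 below. Adamts1, a protease that cuts lecticans, was at 8.18, 8.40, 7.73 and 9.78 CPM in saline rats 1 to 4 and at 11.8, 13.8, 7.96 and 11.1 CPM in METH rats 1 to 4. METH rats 1, 2 and 4 were above every saline rat and METH rat 3 was within the saline range. The log2 fold change was 0.39 (SE 0.17) with an FDR of 0.430 in edgeR's quasi-likelihood test and an exact permutation p of 0.114. Without METH rat 3, the lowest of the METH rats, it was 0.52 with an edgeR FDR of 0.348.

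Adamts4, which cuts the same substrates, had a log2 fold change of -0.21 (SE 0.10), and Adamts5, a further aggrecanase, lay between 0.339 and 1.43 CPM with 0.05 (SE 0.49). The gelatinase gene Mmp2 had -0.11 (SE 0.19) and Mmp14, which encodes the membrane protease that activates it, had -0.15 (SE 0.20). Mmp9, the other gelatinase, had 1 to 14 counts per rat in saline and 1 to 15 in METH rats, and a 95% interval of -1.60 to 1.77. Plat, which encodes tPA, was at 80.0 to 105 CPM in saline and 94.7 to 115 CPM in METH rats (log2 fold change 0.19, SE 0.10).

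Of the 4 inhibitors, Timp4, which is expressed mainly in heart and brain, was the 1 whose groups did not overlap. It was at 19.2, 18.1, 15.3 and 17.8 CPM in saline rats 1 to 4 and at 20.7, 20.2, 22.4 and 20.6 CPM in METH rats 1 to 4. The 4 METH rats lay close together just above saline rat 1. The log2 fold change was 0.25 (SE 0.11) with an FDR of 0.416 in edgeR's quasi-likelihood test. Without METH rat 3 it was 0.22 with an edgeR FDR of 0.698. The exact permutation p of 0.0286 restates that the groups did not overlap.

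Timp2, which also takes part in the activation of Mmp2, lay at 191 to 233 CPM in saline and 165 to 202 CPM in METH rats (log2 fold change -0.19, SE 0.09, edgeR FDR 0.455). Timp3, the inhibitor that binds to the matrix, had -0.10 (SE 0.12), and Timp1, the inducible one, lay between 0.483 and 2.00 CPM with 0.34 (SE 0.48). The library kit does not mark strand, and some of the 39 genes overlap another protein-coding gene in the RefSeq annotation, among them Col1a1 with Sgca, Plat with Ikbkb, Timp1 with Syn1, Timp2 with Cep295nl, Timp3 with Syn3 and Timp4 with Syn2. Reads from such partners cannot be told apart. Syn2, the synapsin gene around Timp4, had a log2 fold change of -0.12 (SE 0.11).

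The genes differed in how closely the rats of a group agreed. The biological coefficient of variation, the spread between rats of a group beyond counting error, had a median of 15.02% over the 38 genes beside 12.3% over all genes tested, and was below 15% in 18 genes and above 30% in 6. The 95% interval lay within a log2 change of 0.5 either way in 18 genes. Lum, Mmp9, Adamts5 and Timp1 were below a mean log2 CPM of 1 and could not have been called. Saline rat 2 was the highest of the 8 rats in 8 genes and the lowest in 0, and METH rat 3 was the highest in 7 and the lowest in 8.

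**Figure D3:**
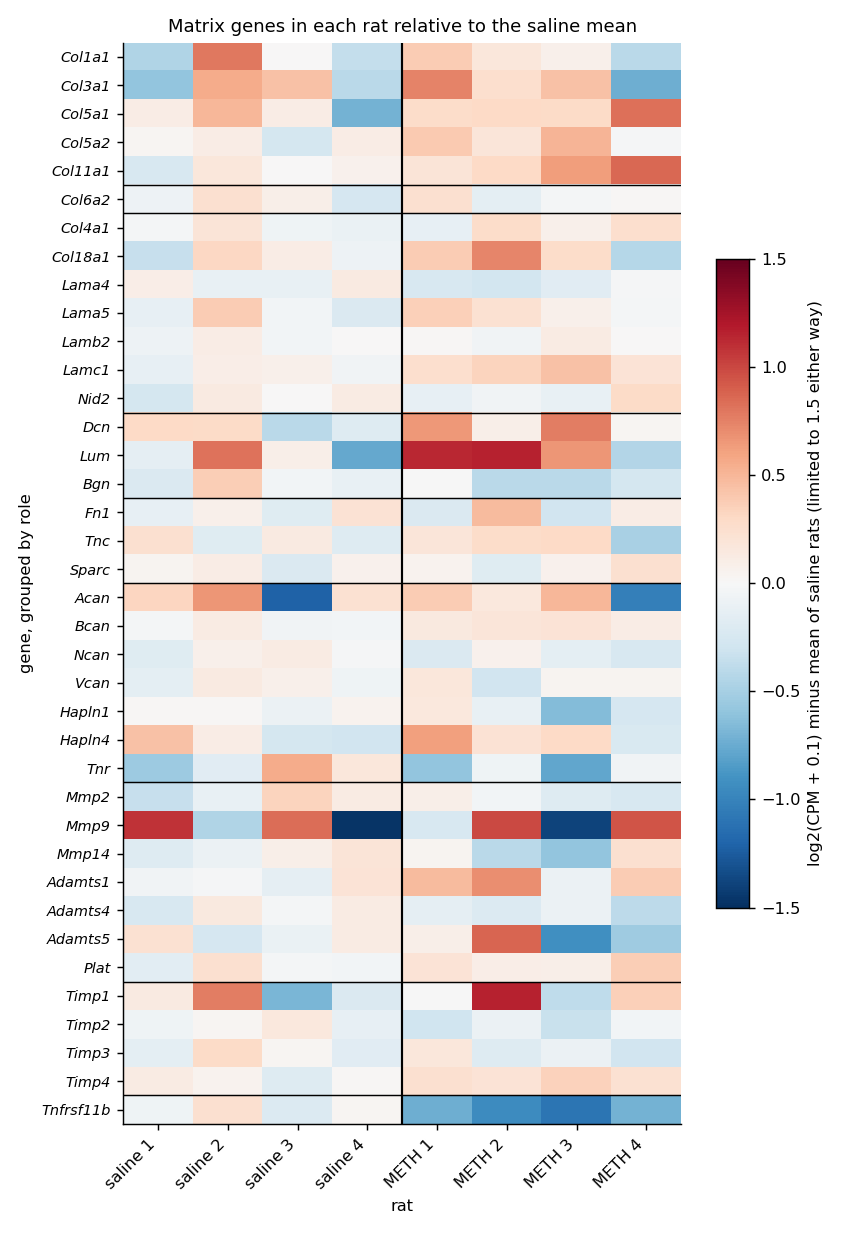
Log2(CPM + 0.1) of each of the 38 matrix genes tested (rows, by role) in each rat (columns) minus the mean of the saline rats, in red where higher and blue where lower, limited to 1.5 either way. Tnfrsf11b is blue in all 4 METH rats, and Lamc1, Col11a1 and Timp4 are red in all 4.

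The marker lists of the cell types that make matrix differed in how they behaved between groups. The 8 microglial markers summed to between 417 and 483 CPM in saline and between 345 and 400.3 CPM in METH rats, with all 8 fitted below 0. Cx3cr1 (log2 fold change -0.73, edgeR FDR 0.0408) and Mpeg1 (log2 fold change -0.79, edgeR FDR 0.0034) were called lower. In the same direction as Tnfrsf11b, every METH rat lay below every saline rat in this sum, and its part in the Tnfrsf11b result was not tested.

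The 7 listed endothelial markers summed to between 694 and 961 CPM in saline and between 719 and 828 CPM in METH rats. Flt1, Tek and Abcb1a, 42.9% of the list, were lower at an unadjusted p below 0.05, beside 4.88% of all genes tested. Of the 7, 6 were fitted below 0 and Slc2a1 above (log2 fold change 0.15, SE 0.10). The 6 pericyte markers summed to between 143 and 237 CPM in saline and between 133 and 172 CPM in METH rats. Pdgfrb and Abcc9, 33.3% of the list, were lower by the same measure. Of the 6, 5 were fitted below 0 and Anpep above (log2 fold change 0.17, SE 0.28). The 4 oligodendrocyte precursor markers summed to 434 to 564 CPM in saline and 410 to 549 CPM in METH rats. All 4 were fitted below 0, and 3 (75.0%) were lower by the same measure. The 4 smooth muscle markers lay at 60.5 to 91.4 CPM in saline and 80.0 to 108 CPM in METH rats. Acta2 and Myh11 were higher by the same measure, as were 6.26% of all genes tested. None of these vascular and precursor markers was called by edgeR, DESeq2 or limma-voom.

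The 8 fibroblast and meningeal markers overlapped, at 72.5 to 113 CPM in saline and 73.8 to 109 CPM in METH rats, with saline rat 2 the highest as in Col1a1. Sums of the 6 astrocyte markers (3189 to 3857 CPM in saline, 3173 to 4118 CPM in METH) and the 6 oligodendrocyte markers (12874 to 18636 CPM in saline, 12166 to 18143 CPM in METH) overlapped as well. The 7 choroid plexus markers summed to 4.83 to 6.28 CPM in saline and 6.28 to 9.40 CPM in METH rats, with Otx2 at 0 in every rat, Ttr at no more than 2.03 CPM and Clic6 higher at an unadjusted p below 0.05 (log2 fold change 0.79, SE 0.34). Every METH sum lay above every saline sum, the nearest at 6.283 and 6.279 CPM. The part of any of these lists in the differences of Lamc1, Col11a1, Timp4, Bcan and Adamts1 was not tested.

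**Figure D4:**
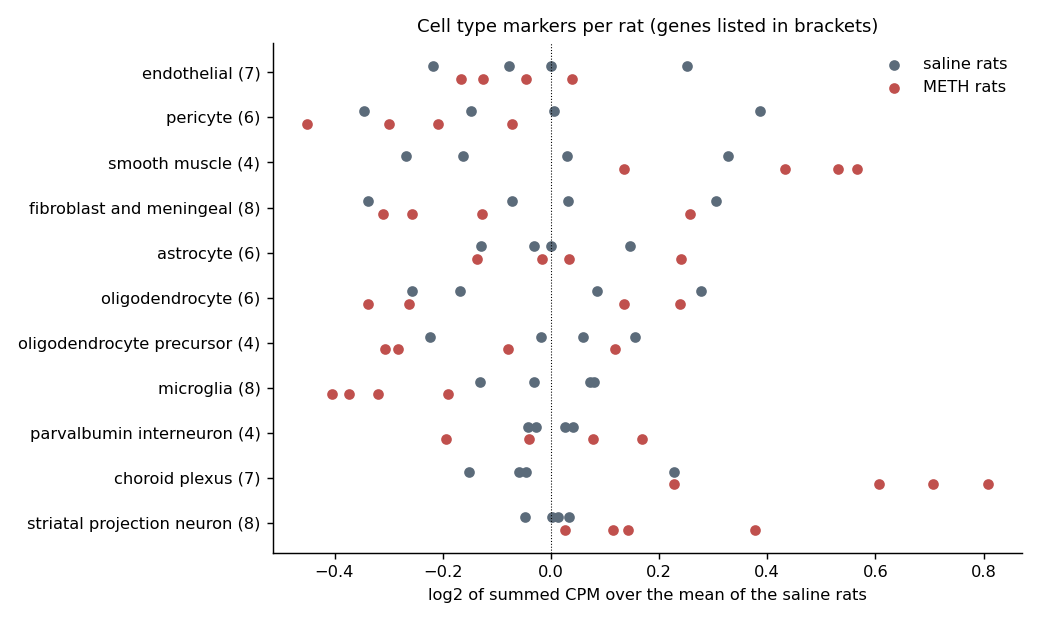
Log2 of the summed CPM of each cell type marker list in each rat over the mean of the saline rats (horizontal axis), with 1 point per rat, saline in grey and METH in red. The microglial sums of the METH rats all lie below those of the saline rats, the choroid plexus sums, which are under 10 CPM, all lie above, and the other lists overlap.

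A wider set of 225 genes of the matrix and its receptors, of which 190 were listed and 154 tested, gave the background from the same biology. None was called by edgeR's quasi-likelihood test or limma-voom and 3 (Col11a2, Serpinh1 and Smad7) were called by DESeq2, which called 1.59% of all genes. In edgeR, 18 were higher and 7 lower at an unadjusted p below 0.05, which is 16.2% of those tested beside 11.1% of all genes. The groups did not overlap in 13 of them, 8.44% beside 6.39% of all genes.

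The collagen folding and crosslinking genes had 16 tested members, 15 of them fitted above 0, beside 5842 of all 12014 genes. Their median log2 fold change was 0.15 beside -0.01 for all genes. At an unadjusted p below 0.05, 25.0% of the list were higher, beside 6.26% of all genes. Serpinh1, which encodes the collagen chaperone HSP47, had the lowest p of the list and lay at 58.2 to 74.6 CPM in saline and 82.7 to 106 CPM in METH rats, without overlap (log2 fold change 0.46, SE 0.11, edgeR FDR 0.0999). The other 3 genes of the list at an unadjusted p below 0.05, named after their values were seen, were the prolyl hydroxylase genes P4ha1 (log2 fold change 0.26, SE 0.09) and P4ha2 (0.36, SE 0.11) and the lysyl hydroxylase gene Plod1 (0.41, SE 0.14).

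The 14 other collagens tested had 2 higher (14.3%) and 1 lower (7.14%) at an unadjusted p below 0.05, beside 6.26% and 4.88% of all genes tested. Col11a2, the partner chain of Col11a1 in collagen XI, had the lowest p among them, at 138 to 159 CPM in saline and 183 to 315 CPM in METH rats. METH rat 3 was the highest, the groups did not overlap, and the log2 fold change was 0.61 (SE 0.14) with an FDR of 0.0999 in edgeR's test.

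The 11 genes of TGF-beta ligands, receptors and Smads belong to a pathway that drives matrix production in many tissues. At an unadjusted p below 0.05, 1 was higher (9.09%) and 2 were lower (18.2%), beside 6.26% and 4.88% of all genes tested. Of the 11, 3 were fitted above 0 and 8 below. Smad7, which encodes the inhibitory Smad, lay at 59.6 to 71.5 CPM in saline and 78.6 to 91.0 CPM in METH rats, a log2 fold change of 0.36 (SE 0.08) with an FDR of 0.0869 in edgeR's test. Those lower, chosen after their values were seen, were the receptor genes Tgfbr1 (log2 fold change -0.47, SE 0.14) and Tgfbr2 (-0.31, SE 0.12).

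**Figure D5:**
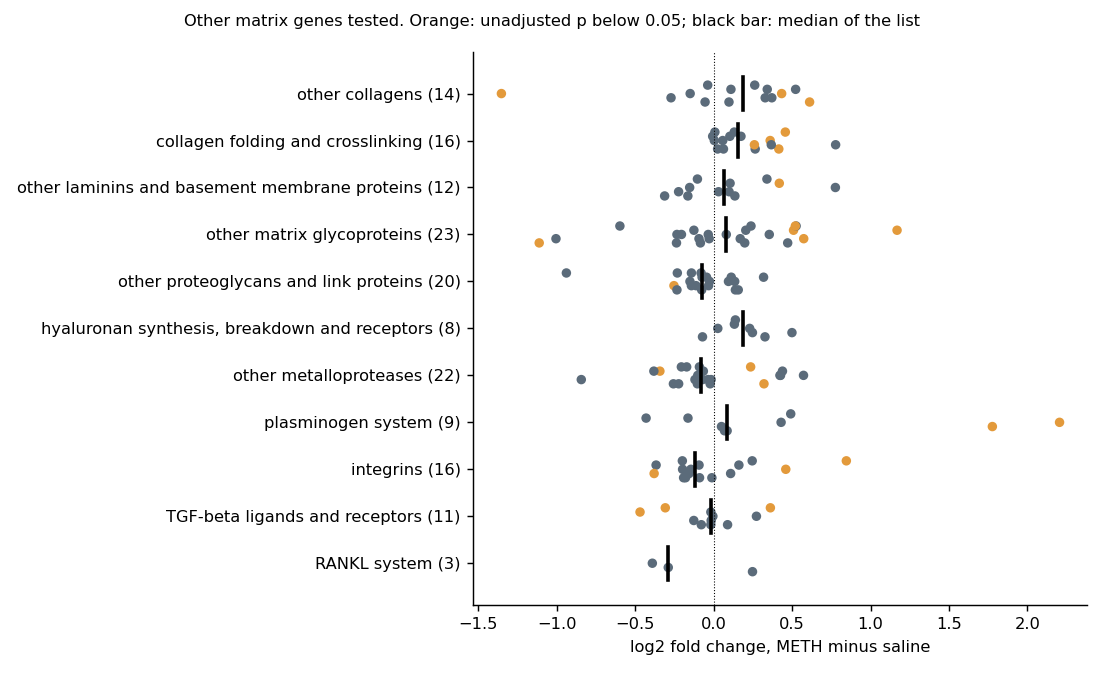
Log2 fold change of METH over saline (horizontal axis) for each gene tested in the other matrix lists, with 1 point per gene, orange at an unadjusted p below 0.05, and a black bar at the median of each list. The collagen folding and crosslinking genes lie almost all to the right of 0, and the medians of the other lists lie on both sides.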

How the data were processed

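Striatal mRNA was sequenced from poly(A) libraries (TruSeq v2 kit) of 8 rats. Per the submitters' processing notes, the authors used Cutadapt 1.18 for trimming, STAR 2.7.0e for alignment to the rn6 build, and for counts per gene featureCounts (Subread 1.6.4). They deposited the raw counts of each rat, unpooled, in a column of its own. Which annotation and strand setting were used, and how reads mapping to several genes were treated, were not given in the sources used here, so overlapping genes and near-identical copies are uncertain. Columns were assigned to rats by the group and number in their names, and 0 columns had no sample. The labels name separate rats.

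In R 4.3.3, the filterByExpr function of edgeR 4.0.16 (minimum count 10) removed low genes, libraries were scaled by TMM, and the 12014 genes left were tested by quasi-likelihood F-test, with Benjamini-Hochberg adjustment. Calls needed an FDR below 0.05 and a mean log2 CPM above 1. SEs are the log2 fold change divided by the square root of F. The 95% intervals use the total degrees of freedom of that test (13.4), prior and residual together. Single genes were also compared on log2 CPM (prior count 2) by two-sided exact permutation over the 70 labelings of 4 of 8 rats. Groups that do not overlap give its smallest p, 0.0286, so for such genes it is no second test. On counts simulated from these libraries, 161 of 200 genes changed by a log2 of 1 were called, with 7 unchanged genes called. Smaller changes were not simulated, and the matrix genes had fitted values of -0.88 to 0.69. The simulation therefore does not show how often changes of their size would be called.

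The study's genes and the marker and pathway lists were chosen with earlier results of these data known, so no list is independent evidence. Genes are described rat by rat where called, at an unadjusted p below 0.05, not overlapping between groups, or among the 3 highest or 3 lowest log2 fold changes. In each other list the gene with the lowest p is named. The promoters came from RefSeq (GRCr8), whose gene table served for names and overlaps only. The alternatives were RLE or total-count scaling, no filter on low counts, no threshold on the mean level, a replicate block, DESeq2 1.42.0, limma-voom (limma 3.58.1) and leaving out each rat. Precision is limited by the depth given in the report and by the spread between rats, and the floor of 3 counts covers counting error only.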

Additional observations from a re-analysis of the deposited data

Results flagged for a closer look

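In each group of 4 rats, the gap between the highest or lowest rat and its nearest neighbour was divided by the whole range of the group. Of 76 groups looked at (38 genes in 2 groups of rats), 4 had a share above Dixon's 95% critical value for 4 samples, and chance gives about 5%. In METH rat 4, Col5a1 was at 3.48 CPM beside 2.35 to 2.38 CPM in the other METH rats (share 0.967). In the same rat, Nid2 was at 6.06 CPM beside 4.55 to 4.76 CPM (share 0.844). Tnc was low there, at 4.32 CPM beside 6.90 to 7.51 CPM (share 0.846). In saline rat 2, Bcan was at 554 CPM beside 493 to 498 CPM in the other saline rats (share 0.912).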

How the results depend on the processing

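Tnfrsf11b was called in 13 of 15 fits, with a log2 fold change of -0.94 to -0.79 when 1 rat was left out. It was lost without saline rat 2, and with a replicate block its FDR was 0.0521 (log2 fold change -0.88). The replicate block thus called 0 matrix genes, with 0 lower, and left 3 at an unadjusted p below 0.05. Over all 12014 genes tested it called 37, beside 62 in the main fit. Rats of the same number shared only that number: the correlations of their deviations were 0.01, -0.19, -0.20 and 0.04. DESeq2 called 2 matrix genes, 1 of them higher, and 191 of all 12014 genes. Leaving out 1 rat gave 0 to 1 called matrix genes, 0 to 1 called lower, and 3 (without saline rat 3) to 9 (without METH rat 4) at an unadjusted p below 0.05. Over all genes tested, these fits called 37 (without saline rat 2) to 70 (without METH rat 1). Lamc1 and Col11a1 kept an unadjusted p below 0.05 in all 15 fits, Timp4 in 8, Bcan in 7 and Adamts1 in 6. Of the genes fitted lower, Timp2 had one in 6 fits and Adamts4 and Tnr in 3 each. In the other 214 values from other settings and 273 from leaving out a rat, direction and side of the threshold were as reported. Signs turned in some genes. Nid2 was at -0.00017 with RLE scaling, -0.034 with total counts, -0.00028 with the replicate block, -0.0011 in DESeq2 and -0.0088 in limma-voom. With total counts Col6a2 was at -0.016 and Lamb2 at -0.017. Col1a1 was at 0.047 with the replicate block and 0.058 in limma-voom, Adamts5 at -0.10 and -0.11, and Acan at 0.023 in limma-voom. With 1 rat left out the log2 fold changes spanned -0.15 to 0.33 (Col1a1), -0.022 to 0.41 (Col3a1), -0.062 to 0.11 (Col6a2), -0.014 to 0.061 (Lamb2), -0.11 to 0.046 (Nid2), -0.13 to 0.14 (Fn1), -0.022 to 0.12 (Sparc), -0.32 to 0.21 (Acan), -0.068 to 0.080 (Vcan), -0.22 to 0.0072 (Mmp2), -0.30 to 0.55 (Mmp9), -0.46 to 0.28 (Adamts5), -0.080 to 0.70 (Timp1) and -0.20 to 0.0040 (Timp3). The causes were not tested. Counts limit Lum, Mmp9, Adamts5 and Timp1, whose SEs were 0.46 to 0.78.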

Other observations

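The remaining lists of matrix genes are given by counts and by the gene with the lowest p. None of their genes was called by edgeR, DESeq2 or limma-voom. Over all genes tested, 6.26% were higher and 4.88% lower at an unadjusted p below 0.05, and 6.39% did not overlap between groups. The groups did not overlap in 2 of the 23 glycoproteins, 1 of the 20 proteoglycans and link proteins and 2 of the 8 hyaluronan genes. The same held for 2 of the 22 metalloproteases and 2 of the 9 plasminogen system genes, and for 0 laminin and 0 integrin genes. Of the 12 other laminins and basement membrane genes tested, 1 was higher at an unadjusted p below 0.05, Fras1 (log2 fold change 0.42, SE 0.18), with METH rat 1 at 26.6 CPM below all saline rats and the other METH rats at 49.2 to 56.6 CPM above them. Of the 23 other matrix glycoproteins, 4 were higher and 1 was lower, and Mgp, which encodes the calcification inhibitor matrix Gla protein, lay at 10.2 to 13.6 CPM in saline and 13.6 to 22.1 CPM in METH rats (log2 fold change 0.52, SE 0.16). Of the 20 other proteoglycans and link proteins, 0 were higher and 1 was lower. This was Cspg5, which encodes neuroglycan C, at 237 to 272 CPM in saline and 157 to 233 CPM in METH rats, without overlap (log2 fold change -0.25, SE 0.11).

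Of the 8 hyaluronan genes tested, 0 had an unadjusted p below 0.05. The hyaluronan synthase gene Has3 had the lowest, with 1.80 to 2.51 CPM in saline and 2.71 to 3.80 CPM in METH rats, without overlap (log2 fold change 0.50, SE 0.25). Of the 22 other metalloproteases, 2 were higher and 1 was lower. Adamts10, a protease that binds fibrillin, lay at 20.9 to 25.1 CPM in saline and 25.5 to 32.1 CPM in METH rats, without overlap (log2 fold change 0.32, SE 0.10). Of the 9 plasminogen system genes, 2 were higher, both at low counts. Serpinf2, which encodes the plasmin inhibitor alpha-2-antiplasmin, had 4 to 11 counts in saline and 13 to 44 in METH rats, and the urokinase receptor gene Plaur had 2 to 16 and 18 to 43. Of the 16 integrin and other matrix receptor genes, 2 were higher and 1 was lower. The lower one was Itgb2, the beta-2 integrin of leukocytes and microglia, at 9.99 to 14.1 CPM in saline and 8.86 to 10.2 CPM in METH rats (log2 fold change -0.38, SE 0.14), in the direction of the microglial marker sum, whose part was not tested.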
